A study of Glycine max with 4 samples.

Results

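Chromosome 13 of soybean carried 743 sites at which the protein of the locus GLYMA.08G357600 gave a chromatin immunoprecipitation peak in both biological replicates. They were chosen by position alone: a peak of replicate 1 and a peak of replicate 2 on chromosome 13 were taken as 1 shared site where their overlap was at least 50% of the width of each. The 20 chromosomes together carried 9806 shared sites, of which 9063 lay on the other 19, and unplaced scaffolds brought the total to 9858. Each site is placed by its summit in replicate 1. Coordinates are those of the deposited lists, for which the sources used here name no genome build.

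The study located DNA occupied by this protein by ChIP-seq, the sequencing of DNA fragments that an antibody pulls down with a protein crosslinked to them. All 4 samples were embryos at the early maturation stage from the soybean cultivar Williams 82 and were dissected from seeds of 6 to 7 mm. The 2 ChIP samples were precipitated with an antibody raised against a peptide spanning amino acids 487 to 502 of the protein, and the 2 input samples were chromatin that was not precipitated. A whole embryo holds many cell types, so each peak is an average over them, and the only evidence for a peak's identity is 1 antibody. Only the lists of the ChIP replicates were analysed here, and neither input sample was.

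Early maturation is the stage at which a legume embryo turns from building its organs to filling with storage protein and oil, a program run by transcription factors that bind DNA beside their target genes. Soybean chromosomes typically keep most genes in their arms, toward the ends, with a broad gene-poor and repeat-rich region around the centromere. Chromosome 13 is also known to carry the nucleolus organizer, the array of ribosomal RNA genes; its place in the coordinates used here was not determined. No gene annotation or sequence of the lists' build was used, so sites are described by position, enrichment, width and spacing.

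Over the whole lists, replicate 1 had 15861 peaks and replicate 2 had 10950, while the sources used here give no library totals. On chromosome 13 the lists held 1154 and 800 peaks, more than on any other chromosome in either replicate. In replicate 1 the shared sites were 64.4% of the peaks there (exact binomial 95% interval 61.5 to 67.2%). In replicate 2 they were 92.9% (90.9 to 94.6%). Over all 20 chromosomes the shares were 62.2% in the first list and 90.0% in the other. Replicate 1's interval for chromosome 13 overlapped that of the other 19 chromosomes, 62.0% (61.2 to 62.8%), whereas replicate 2's lay above theirs, 89.8% (89.2 to 90.4%). These intervals cover counting error only and take peaks as independent. In rank among the chromosomes, chromosome 13 was 2 in replicate 1 and 1 in replicate 2. With at least 4-fold enrichment these ranks were 8 and 6, and with −log10 q of at least 10 they were 14 and 3. They stayed the same with an overlap of 1 bp and with summits at most 100 bp apart. With 1 peak list for each of 2 replicates, an exact sign-flip permutation test of a difference between chromosomes within replicates cannot give a two-sided p below 0.5. Comparisons between chromosomes are therefore given mainly as ranks among the 20 and as ranges.

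The 50% rule separated few peaks on this chromosome. Of the 773 overlapping pairs of peaks, 30 were not counted as shared. The member nearest the threshold, at 14265325 to 14265783, had an overlap of 50.3% of its wider peak, with 3.85-fold enrichment in replicate 1 and 3.56-fold in replicate 2. The pair nearest to it outside, at 1802933 to 1803513, overlapped by 49.6%, with 4.42-fold and 3.06-fold. For the typical shared site, the overlap was 78.4% of the wider peak.

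Chromosome 13 had the most shared sites of the 20 chromosomes and the highest density. It held 16.3 sites per Mb over the 45.7 Mb up to its last peak. The next was chromosome 11 with 15.0 per Mb, the median of the other 19 was 9.75 per Mb, and the lowest was chromosome 20 with 7.74 per Mb. Chromosome 13 also came first in each replicate on its own. Replicate 1 had 25.3 peaks per Mb on chromosome 13 against at most 23.8 elsewhere, and replicate 2 had 17.5 against at most 16.3. Against the other 19 chromosomes pooled, the difference was 9.05 peaks per Mb in replicate 1 and 6.32 in replicate 2 (mean 7.68 ± 1.93, SD, n = 2, exact sign-flip permutation p = 0.5, two-sided, the smallest it can give). The chromosome was not a long one, with 12 of the others reaching farther.

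The sites were placed differently along the chromosome than on any of the other 19. Its first 10% held 10 sites, its second 10% held 1, and the 7 steps of 10% from 30% to the end held 72, 109, 87, 82, 121, 125 and 111. In density, that is 2.19 and 0.22 sites per Mb in the first and second 10%, where the other chromosomes had medians of 20.4 and 16.6 per Mb and none was lower than chromosome 13. Between 40 and 50% of the length chromosome 13 held 23.9 sites per Mb, against a median of 2.63 and a highest value of 7.54 per Mb elsewhere. From 50 to 60% it held 19.04 per Mb, against a median of 1.68 and a highest value of 4.34. In every 10% step from 40 to 90% of the length, chromosome 13 was denser than all 19 others. In the last 10% it was within their range, with 24.3 per Mb, below 6 of them.

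**Figure D1:**
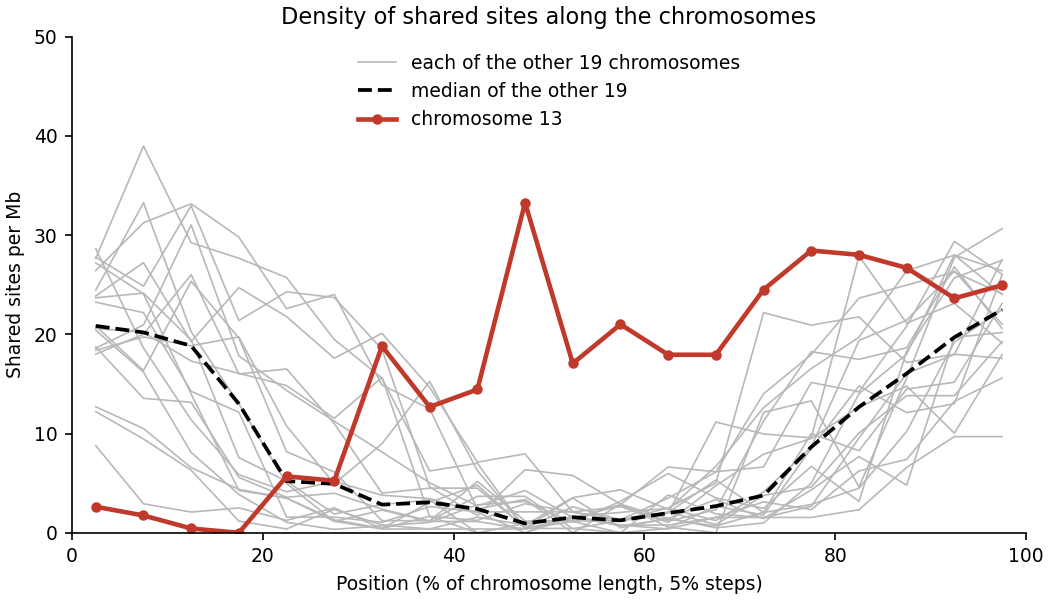
Shared sites per Mb (vertical axis) in 5% steps of chromosome length (horizontal axis) for chromosome 13 (red) and each of the other 19 chromosomes (grey), with the median of the other 19 dashed. The red line lies under all grey lines up to 20% of the length, peaks at 33.3 sites per Mb between 45 and 50%, where the median of the others is 0.95, and stays above all of them to 90%.

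The outer 25% at either end together held 325 of the 743 sites, or 43.7% (40.1 to 47.4%). On the other 19 chromosomes together that share was 80.8% (80.0 to 81.7%), and it ranged from 69.7% on chromosome 8 to 92.1% on chromosome 4. The shortfall lay at 1 end. The first 25% of chromosome 13 held 24 sites, or 3.23% (2.08 to 4.77%), where the other chromosomes held 40.9% (39.9 to 41.9%). The last 25% held 301 sites, or 40.5% (37.0 to 44.1%), close to the 39.98% (39.0 to 41.0%) of the others. The imbalance between the first and the last 50% of the length was not in itself extreme. On 3 chromosomes the first 50% held a smaller share than the 29.2% of chromosome 13, down to 17.0% on chromosome 20. The centromere was not placed, so these parts are not chromosome arms. Each replicate's list gave the same picture on its own, with 44.7% (41.8 to 47.6%) of replicate 1's peaks and 44.3% (40.8 to 47.8%) of replicate 2's in the outer 25% at either end. The other 19 chromosomes pooled had 81.2% in replicate 1 and 81.0% in replicate 2. The difference of chromosome 13 from them was −36.6 ± 0.22 percentage points (SD, n = 2, exact sign-flip permutation p = 0.5, two-sided, again the smallest it can give).

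Counts per Mb show where the sites begin. The stretches that follow were set after these counts were seen. The first 3 Mb held 3, 3 and 4 sites, and the 7 Mb from 3 to 10 Mb held 2 sites in all, with 5 of the 7 bins of 1 Mb empty. From 10 to 14 Mb there were 26 sites, or 6.50 per Mb, and from 14 to 20 Mb there were 88, or 14.7 per Mb. From 20 Mb to the last peak there were 617 sites, which is 83.0% of all, at 24.0 per Mb. No bin in that last stretch held fewer than 12 sites, and the fullest, from 34 to 35 Mb, held 36. The densest run of bins in the middle of the chromosome was from 20 to 23 Mb, with 34, 31 and 29 sites. The bins from 17 to 18 Mb and 18 to 19 Mb were thinner than their neighbours, with 9 and 8 sites.

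Bins with at least 5 sites followed each other without a break for 32 Mb on chromosome 13, from 13 to 45 Mb, or 71.1% of its whole 1 Mb bins. On the other chromosomes the longest such run was 10 to 23 Mb, the longest being on chromosome 8, and at most 48.9% of the bins. Bins with fewer than 5 sites made up 24.4% of chromosome 13 and 29.4 to 59.6% of the others. Its fullest bin, of 36 sites, was exceeded on 4 chromosomes, up to 44 sites on chromosome 17. Among the denser 50% of its bins the median was 25 sites, equal to that of chromosome 11, whereas the median over the other 19 was 17. The densest bins holding 50% of the sites were 13 on chromosome 13, or 28.9% of its bins, and 16.1 to 26.5% on the others.

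The sparse region itself was not unusual in depth. The 10 Mb with the fewest sites, from 0 to 10 Mb, held 12 sites, and on the other chromosomes the sparsest 10 Mb held 3 to 29 sites with a median of 10. Its place was outside the range of the others. Its centre lay at 10.9% of the length of chromosome 13, and between 31.7% and 62.5% on each of the others.

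The few sites of the sparse region had a mean fold over both replicates below 10, with 1 exception. Between 3 and 10 Mb the only shared sites were at 5896631 to 5897090, with 5.36-fold enrichment in replicate 1 and 4.34-fold in replicate 2, and at 9773441 to 9773835, with 4.23-fold and 3.84-fold. The first of these is also the only site between 10 and 20% of the length. Replicate 1 had 3 peaks in these 7 Mb and replicate 2 had 2, so that 1 peak in these 7 Mb was left out by the pairing. The exception lay in the first 3 Mb, at 2558580 to 2559333, where enrichment was 25.6-fold in replicate 1 and 18.3-fold in replicate 2. The 10 sites of these 3 Mb had a median mean fold of 6.35, beside 5.57 at the sites from 20 Mb on.

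The widest gap without a shared site ran for 3.88 Mb, from the summit at 5896823 to that at 9773634, and neither list had a peak inside it. The next, of 3.06 Mb, ran from 2841058 to 5896823 and held 1 peak of replicate 1. Its left neighbour, at 2840893 to 2841224, was a weak site of 3.36-fold and 3.15-fold. The next widest, of 1.06 Mb, ran from 1497952 to 2558943 and held 3 peaks of replicate 1 and 1 of replicate 2, none shared. It opened at the site from 1497651 to 1498181, with 5.54-fold and 4.95-fold. The 3 widest gaps are thus all in the first 10 Mb.

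Long gaps were fewer on chromosome 13 than on any other chromosome. It had 4 gaps of over 500 kb, which took up 8.52 Mb or 18.6% of its length. The others had 8 to 24 such gaps, taking up 28.0 to 51.4% of their length. The size of the widest gap was not at either extreme, since 7 chromosomes had a wider one, up to 6.59 Mb on chromosome 2. Its centre, at 17.2% of the length, was nearer to the chromosome's start than on any other, where the centres lay from 26.2 to 69.9%.

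Short distances were like those elsewhere. The median distance between neighbouring sites of chromosome 13 was 32.3 kb, shorter than on 15 chromosomes and longer than on 4, of which chromosome 11 had the shortest, 29.0 kb. The closest 10% of neighbours were at most 3.60 kb apart, in the middle of the range of the others, 2.74 to 5.14 kb. The difference was in the long distances: 90% of the neighbours on chromosome 13 were at most 116 kb apart, against 123 to 286 kb on the others.

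**Figure D2:**
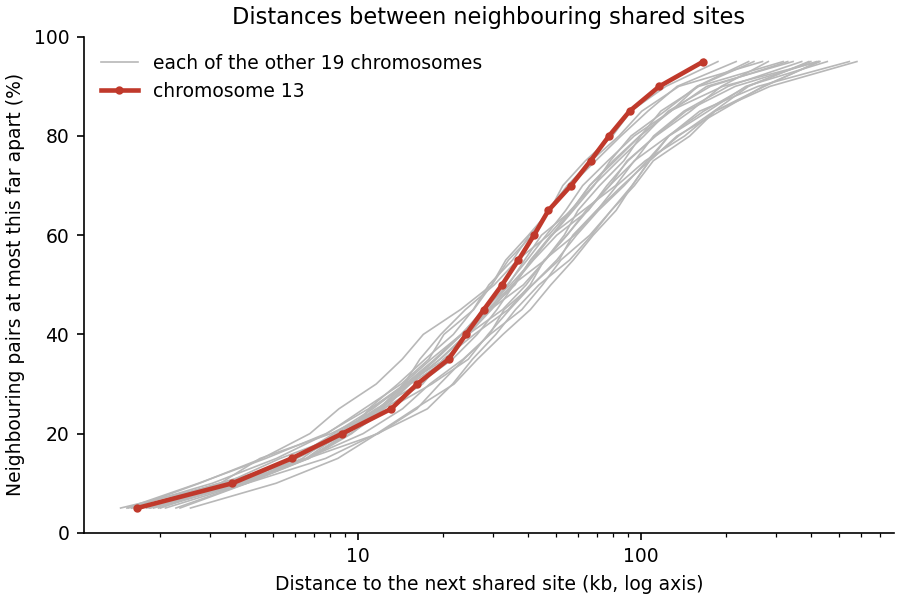
Percentage of neighbouring pairs of shared sites (vertical axis) that were at most a given distance apart (horizontal axis, kb, log scale) on chromosome 13 (red) and each of the other 19 chromosomes (grey). The red line runs among the grey ones at short distances and lies left of all of them at 90% of the pairs, at 116 kb against 123 to 286 kb.

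Enrichment at the sites was like that on the other chromosomes. Fold enrichment is the authors' ratio of ChIP signal to local background at a peak's summit. At the 743 sites it had a median of 5.96 in replicate 1, with 50% of the sites between 4.44 and 9.34 and a range from 2.28 to 38.4. In replicate 2 the median was 5.30, with 50% between 4.07 and 8.10 and a range from 2.23 to 37.8. The distributions of the replicates overlap nearly whole, and replicate 1 gave the higher value at 483 sites, or 65.0%. Medians on the other 19 chromosomes ran from 5.94 to 6.69 in replicate 1 and from 5.16 to 5.76 in replicate 2, so that chromosome 13 was second from the lowest in replicate 1 and within the lower part of the range in replicate 2. Fold is relative to the background of its own list, and levels of occupancy in the replicates cannot be compared from it.

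Strong sites were as frequent as elsewhere. A mean fold over both replicates of at least 10 was found at 148 sites of chromosome 13, or 19.9% (17.1 to 23.0%), against 20.7% over all 20 chromosomes. A mean fold of at least 20 was found at 32 sites, or 4.31%, and at 4.35% of the sites on the other 19. Sites below a mean of 4-fold made up 17.5% on chromosome 13 and 16.3% on the others. Of the 148 strong sites, 45.3% (37.1 to 53.7%) lay in the outer 25% at either end, and of the 130 sites below 4-fold 48.5% (39.6 to 57.4%) did. On the other 19 chromosomes these shares were 79.9% (78.0 to 81.7%) and 82.2% (80.2 to 84.2%). Within chromosome 13, 19.4% (15.7 to 23.5%) of the sites in the middle 50% were strong, and 20.6% (16.3 to 25.4%) of those in the outer parts. Across its sites, mean fold and position had a Spearman correlation of −0.03 (n = 743, a description over sites of the same 2 libraries).

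Some stretches departed from this even picture. From 10 to 14 Mb, just past the sparse region, 11 of 26 sites were strong, or 42.3% (23.4 to 63.1%), and 7 of these 11 lay between 10 and 11 Mb among 10 sites. From 14 to 20 Mb 12 of 88 were strong, or 13.6% (7.25 to 22.6%), and from 20 Mb on 124 of 617, or 20.1% (17.0 to 23.5%). The bin from 20 to 21 Mb held 12 strong sites among 34, the most of any bin, and the next bin held 2 among 31. From 30 to 31 Mb 9 of 12 sites were strong, although this was the thinnest bin of the dense stretch. These bins were singled out after their values were seen, and no test was made.

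**Figure D3:**
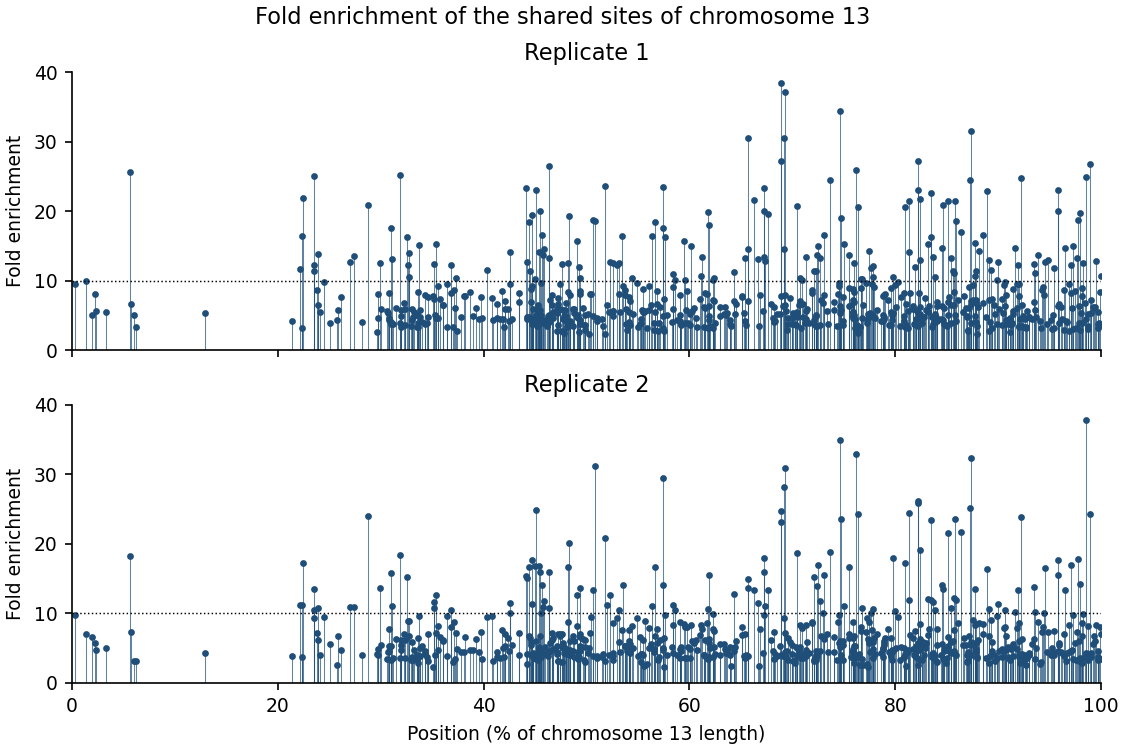
Fold enrichment (vertical axis) of each of the 743 shared sites against its place on chromosome 13 (horizontal axis, % of length), in replicate 1 (upper panel) and replicate 2 (lower panel), with a dotted line at 10-fold. Both panels show a near-empty stretch up to 21% of the length, and the tallest sites, up to 38.4-fold and 37.8-fold, in the last 50% of the length, which holds most of the sites.

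The 10 strongest shared sites of chromosome 13, by mean fold, all lay in its last 50%. Most sites lay there, since the first 50% held 217 of the 743, or 29.2%. The strongest was at 34086249 to 34087245, with 34.4-fold enrichment in replicate 1 and 34.9-fold in replicate 2 (mean 34.7 ± 0.34, SD, n = 2, as for the sites that follow). It ranked 18th among the shared sites of all 20 chromosomes. The site at 31638657 to 31639649 had 37.2-fold and 30.8-fold (34.0 ± 4.49), and the site at 39902030 to 39902842 had 31.6-fold and 32.4-fold (32.0 ± 0.56). The replicates differed little at the strongest of these and at the one near 39.9 Mb. At 31638657 they differed by more than the distance between the means of all 3.

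The next sites in the order were those on which the replicates differed most among the 10. At 31496977 to 31498172 replicate 1 gave 38.4-fold, its highest value on the chromosome, and replicate 2 gave 24.8-fold (31.6 ± 9.67). At 45015317 to 45016710 the order was reversed, with 24.9-fold in replicate 1 and 37.8-fold in replicate 2 (31.3 ± 9.08), the highest value of replicate 2 on the chromosome. With differences of this size between replicates, their place among the 10 is not fixed by the data.

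The remaining 5 had lower means. At 34803702 to 34804628 enrichment was 25.9-fold and 33.0-fold (29.4 ± 5.01), and at 31605549 to 31606418 it was 30.5-fold and 28.2-fold (29.4 ± 1.62). The site at 37560262 to 37561340 had 27.2-fold and 26.1-fold (26.7 ± 0.77). At 26250554 to 26251601 the values were 23.5-fold and 29.4-fold (26.5 ± 4.17), and at 45180274 to 45181407 they were 26.8-fold and 24.3-fold (25.5 ± 1.77). Replicate 1 was higher at 5 of the 10 sites and replicate 2 at the other 5. Of the 10, 7 were among the 10 highest of replicate 1 and 8 among those of replicate 2.

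Behind these values stood 312 to 414 ChIP fragments over the summit in replicate 1 and 197 to 301, after the caller's scaling, in replicate 2. These pileups were recovered from the deposited fold and p-values. Over all 743 sites the median pileup was 69.0 in replicate 1 and 45.7 in replicate 2, close to the 70.0 and 45.7 of the other chromosomes. Summits of the 10 sites were 5 to 30 bp apart between replicates.

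Of the 10 strongest sites, 3 lay close together, with summits at 31497487, 31605856 and 31639146. From the summit at 31472632 to that at 31639146, over 167 kb chosen after these values were seen, there were 7 shared sites, of which 4 had a mean fold of at least 20. The bins from 34 to 35 Mb and from 37 to 38 Mb also held 4 such sites each, spread over 796 kb and 493 kb. In all, the 32 sites of at least 20-fold lay in 17 bins of 1 Mb, with 3 of them before 20 Mb, and 5 of the 31 neighbouring pairs among them were at most 50 kb apart.

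Peak width rose with fold and varied little with position. Median width was 459 bp in replicate 1, with 50% of the sites between 368 and 588 bp, and 374 bp in replicate 2, with 50% between 289 and 486 bp. The narrowest peaks were 234 and 217 bp and the widest 1569 and 1413 bp. Both of the widest belonged to 1 site, with its summit at 38123009 and enrichment of 22.6-fold and 23.4-fold. On the other chromosomes medians ran from 451 to 489 bp in replicate 1 and from 369 to 400.5 bp in replicate 2. Replicate 1 had a median of 459 bp both in the outer 25% at either end and in the middle 50%, and replicate 2 had 374 and 373 bp. Width and position had Spearman correlations of 0.02 and −0.02 (n = 743, a description). The 743 sites covered 373 kb in replicate 1, or 0.816% of the chromosome, and 305 kb in replicate 2, or 0.668%.

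In replicate 1, sites below a mean of 4-fold had a median width of 334 bp, sites of 4-fold to 10-fold 448 bp, sites of 10-fold to 20-fold 653.5 bp, and stronger sites 872.5 bp. In replicate 2 the same classes had 260, 362, 532.5 and 747 bp. Across the 743 sites, width and mean fold had Spearman correlations of 0.789 in replicate 1 and 0.771 in replicate 2, beside 0.763 and 0.764 on the other chromosomes. These are descriptions over sites of the same libraries, and width and fold come from the same peak call. The summit lay within the middle 50% of the peak at 99.1% of the sites in replicate 1 and 95.8% in replicate 2, beside 98.1% and 96.7% on the other chromosomes.

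**Figure D4:**
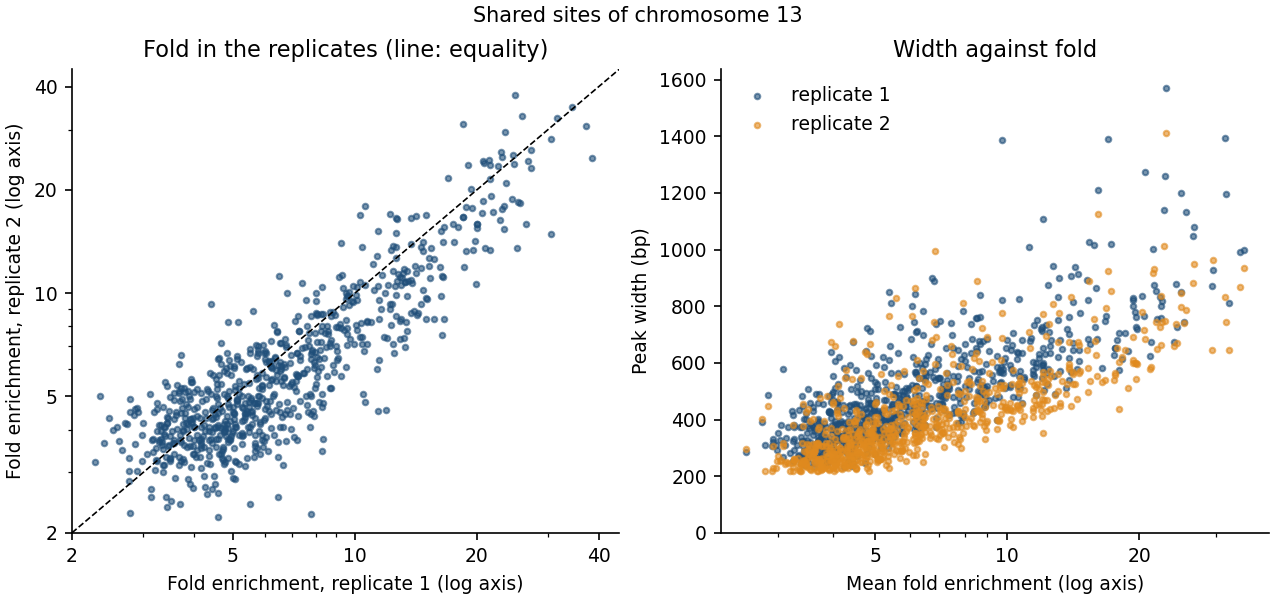
Left, fold enrichment of the 743 sites in replicate 2 (vertical) against replicate 1 (horizontal), both on log axes, with a dashed line at equality. Right, peak width in bp (vertical) against mean fold (horizontal, log axis) in replicate 1 (blue) and replicate 2 (orange): median width rises from 334 to 872.5 bp and from 260 to 747 bp between the weakest and the strongest class.

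The replicates ranked the sites of chromosome 13 much as they ranked those of the others. The Spearman correlation of fold between replicates was 0.815 over the 743 sites and 0.817 over the other chromosomes' sites. The log2 ratio of replicate 1 to replicate 2 had a median of 0.16 and an SD of 0.40 on chromosome 13, and 0.17 and 0.40 elsewhere. At 15 sites, or 2.02%, the replicates differed by more than 2-fold, of which 13 were higher in replicate 1. On the other 19 chromosomes the share was 2.35%. The largest ratio, 3.43, was at the site with its summit at 16019842, singled out after its value was seen, where replicate 1 gave 7.78-fold and replicate 2 gave 2.27-fold. Summits were a median of 26 bp apart, beside medians of 20 to 27 bp on the other chromosomes, and 90.3% were within 75 bp.

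Clusters, taken as runs of 2 or more shared sites each at most 3000 bp from the next, held 118 sites, or 15.9% (13.3 to 18.7%). On the other chromosomes they held 16.7% (16.0 to 17.5%), from 11.1% on chromosome 16 to 20.5% on chromosome 11. Chromosome 13, the densest, thus came 16th of 20 in the share of clustered sites. Its 54 clusters comprised 45 pairs, 8 triplets and 1 group of 4. In the first 14 Mb, which held 38 sites or 5.11% of all, there was 1 cluster. Their median span was 1740 bp.

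Sites within a cluster were often unequal. The strongest site had a median of 1.84 times the mean fold of the weakest, and up to 8.11 times in the pair from 23666923 to 23668842. In 22 of the 54 clusters the strongest site reached 10-fold, and in 5 every site did. Over all sites of chromosome 13, clustered or not, 19.9% were of at least 10-fold. These ratios and counts were not set beside other chromosomes or beside unclustered neighbours, so they do not mark clusters out. Clustered sites had a median mean fold of 6.10 and single sites 5.52, where the other chromosomes had 5.76 and 5.74. At least 10-fold was reached by 23.7% of clustered and 19.2% of single sites, beside 23.3% and 20.3% elsewhere.

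No cluster reached 5 sites. The group of 4, named for its size after the clusters were counted, spanned 5534 bp. Its first site, at 21180317 to 21180651, had 4.08-fold and 4.65-fold enrichment, and the second, at 21181376 to 21181951, had 13.3-fold and 10.8-fold. The third, at 21183275 to 21183670, had 5.02-fold and 4.46-fold, and the last, at 21185665 to 21186288, had 26.5-fold and 15.9-fold. Strong and weak sites thus alternated, in the same order in both replicates.

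The fullest 50 kb window, from 34650001 to 34700000, held 7 shared sites, a number reached but not passed on the other chromosomes, where 5 had such a window. The 7 summits lay within 29.1 kb and all were of moderate strength. The highest, at 34671758 to 34672271, had 8.84-fold in replicate 1 and 8.81-fold in replicate 2, almost the same in both. It closed a triplet with the sites at 34669783 to 34670133, of 5.54-fold and 4.51-fold, and at 34670531 to 34670926, of 4.91-fold and 3.75-fold. The site at 34677108 to 34677607 was the only one of the 7 that was higher in replicate 2, with 5.10-fold and 6.41-fold. The remaining sites, at 34681455 to 34681754, 34694524 to 34694911 and 34698815 to 34699311, had 5.48-fold, 7.22-fold and 4.59-fold in replicate 1 and 4.81-fold, 4.40-fold and 4.46-fold in replicate 2.

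**Figure D5:**
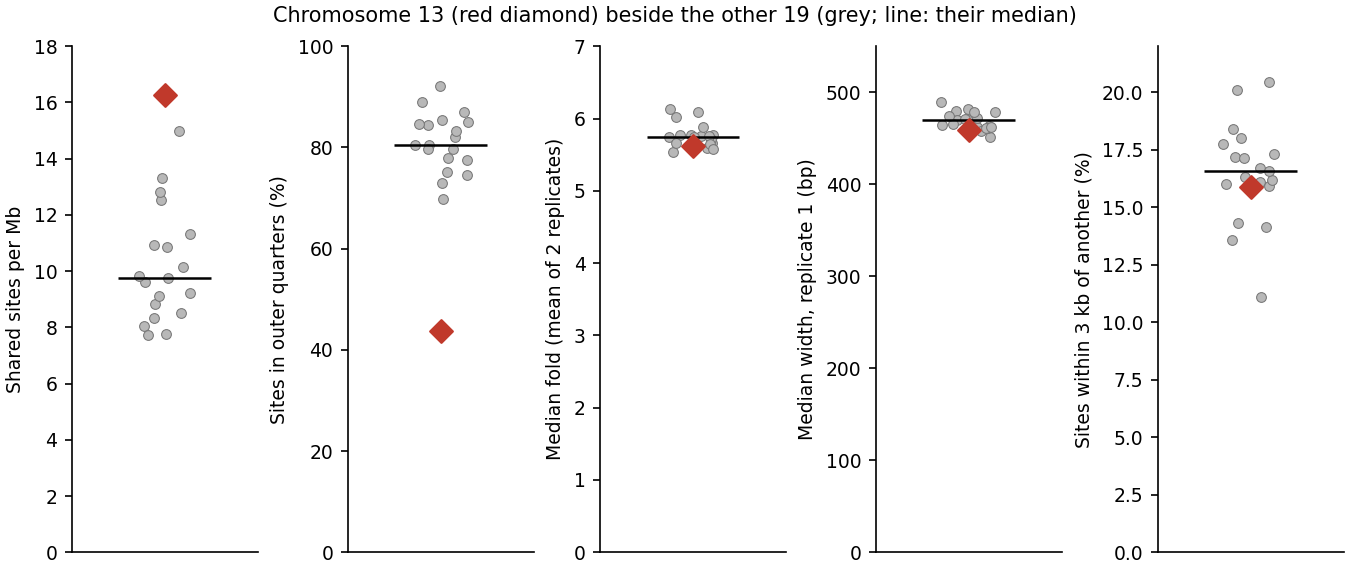
Values of chromosome 13 (red diamond) and of the other 19 chromosomes (grey points, with a line at their median), from left to right the shared sites per Mb, the percentage of sites in the outer 25% at either end, the median of the mean fold, the median width in replicate 1 (bp) and the percentage of sites within 3 kb of another. Chromosome 13 stands outside the others in the first panel, at 16.3, and the second, at 43.7%, and among them in the other panels, at 5.62-fold, 459 bp and 15.9%.

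Peaks of chromosome 13 without a partner were weak, as were unshared peaks elsewhere. In replicate 1, 385 peaks touched no peak of replicate 2, and they had a median of 3.49-fold and at most 6.85-fold. In replicate 2, 28 peaks touched none of replicate 1, with a median of 3.46-fold and at most 5.86-fold. With the peaks that overlapped by too little to be shared, the medians were 3.50-fold in replicate 1 and 3.51-fold in replicate 2. On the other 19 chromosomes they were 3.53-fold and 3.75-fold. Of replicate 1's unmatched peaks 45.7% lay in the outer 25% at either end, close to the 43.7% of the shared sites, and 3 lay in the first 10 Mb.

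The local background under the sites changed little along the chromosome. Recovered with the pileup, it had a median of 10.5 fragments in replicate 1 and 7.16 in replicate 2, beside 10.2 and 7.16 on the other chromosomes. At the 10 sites of the first 3 Mb the medians were 10.8 and 8.09, and from 20 Mb on they were 10.5 and 7.34. These values exist only where a peak was called, so they say nothing of read coverage inside the gaps. The part of read placement in the sparse region was not tested.

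A patch near 38.8 Mb stood on a high background. Of the 33 peaks of replicate 1 with a background over 2 times the list's median, 9 were on chromosome 13, or 27.3% (13.3 to 45.5%), where the chromosome had 7.28% of all peaks. Of the 51 of replicate 2, 5 were, or 9.80% (3.26 to 21.4%), where it had 7.31% of all peaks. These intervals take peaks as independent. Of the 9 in replicate 1, however, 5 lay close together, between 38798721 and 38856052, a patch singled out after its values were seen. They had backgrounds of 33.4 to 38.2 fragments and enrichment of 1.88-fold to 3.60-fold, and 2 of them, at 38798721 to 38799135 and 38855593 to 38856052, were shared. In replicate 2 these 2 sites had backgrounds of 27.1 and 24.1 and enrichment of 2.89-fold and 3.61-fold. The next shared site, at 38877217 to 38878218, was back on a background of 11.9 and 7.38, with 21.5-fold enrichment in both replicates.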

How the data were processed

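For each ChIP replicate the authors deposited a separate narrowPeak list. Bowtie 0.12.7 and MACS2 appear in the submitters' processing notes; no source used here gives the MACS2 version, genome build, read filters or threshold. Besides position and summit offset, the deposited lists hold a fold enrichment (the ratio of ChIP to local background), the −log10 of the p-value and of the q-value, and a score. The deposited score was not used.

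Shared sites were one-to-one pairs overlapping by at least 50% of each width; no peak had 2 candidate partners. The last peak end stood in for chromosome length, and positions are printed counting from 1. The outer parts are the outer 25% at either end, bins are 1 Mb, and clusters use steps of at most 3000 bp. Shares have exact Clopper-Pearson 95% intervals, for counting error only, and differences within replicates an exact sign-flip permutation test. Pileup and background were solved from the deposited fold, (pileup + 1)/(background + 1), and −log10 p as an upper Poisson tail. With a scale of 1 in replicate 1 and 0.846 in replicate 2, 100% of the pileups were whole within 0.02. Pairing, clustering and recovery were tested on simulated data. The simulated p-values were not as small as those of the strongest sites in replicate 1. The simulated backgrounds were below those of the high-background patch, so recovery at these peaks was not tested in this way.

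Rules named the 10 sites of highest mean fold, those beside the 3 widest gaps and those of the fullest 50 kb window. They also named clusters of 5 or more, of which none existed, and sites in 10 to 20% of the length. Other sites were named after their values were seen. Among them are the largest cluster, the widest site, the most unequal pair, the high-background patch and the pairs nearest the overlap threshold. The chromosome, the lists and the rules were chosen with earlier results of these data known. As alternatives, thresholds on q and fold, other pairing rules, another length, other cluster steps and single replicates were tried. Values were computed in Python 3.11.15 with scipy 1.17.1, numpy 2.4.6 and pandas 2.3.3, and plots were drawn with matplotlib 3.10.9. No sequence was read, since no genome of the lists' build was used here.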

Additional observations from a re-analysis of the deposited data

How the results depend on the processing

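Chromosome 13 had the highest density and the lowest share of sites in the outer parts of all 20 chromosomes under each of the 7 alternatives for either. With −log10 q of at least 10, the widest gap was 4.24 Mb, median fold 7.01, median width 518.5 bp (replicate 1) or 425.5 bp (replicate 2), the clustered share 12.1% and the shared share of replicate 2's peaks 95.4%. With at least 4-fold enrichment, these were 4.24 Mb, 7.13, 522 bp, 429 bp, 11.7% and 86.6%, the shared share of replicate 1's peaks was 71.0% and the outer share 44.4%. Both thresholds remove weak peaks, which by construction raises fold. Neither acts on width itself. Weak peaks were also narrower, and their part in the greater median width was not tested. With an overlap of 1 bp, the outer share was 44.3% and the shared share of replicate 2's peaks 96.0%; for these and the other shared shares the cause was not tested. Clusters held 2.83% of sites at steps of 1000 bp and 38.2% at 10000 bp, by construction. Without one or the other replicate there were 800 to 1154 peaks, 17.5 to 25.3 per Mb, with 44.25 to 44.7% in the outer parts, a widest gap of 3.88 Mb in both lists, a median fold of 4.63 to 5.08, a median width of 365 to 397.5 bp and 18.9 to 24.2% in clusters. Replicate 1's list, of 1154 peaks, is the one over 1.5 times the shared number. The rank of chromosome 13 in median fold moved between 10 and 20 of 20 over the 6 alternatives, and its rank in the clustered share between 10 and 15 over 8. In the widest gap its rank moved between 2 and 9 over 6 alternatives, and rank 2 was in replicate 1's list alone. No paired analysis was possible because the input samples, the other group with these replicate numbers, were not analysed; differences between chromosomes within each replicate stand in the report. Depth is known only at called peaks, so gaps cannot be told apart from stretches where reads could not be placed.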
